A study of Mus musculus with 16 samples.

Results

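The 9 genes described here encode Atf4 and its close partners and brakes in the integrated stress response: the transcription factors Atf4, Atf5, Atf3, Ddit3, Cebpg and Nupr1, and the feedback regulators Trib3, Chac1 and Ppp1r15a. They were taken by symbol from a table of 53801 Ensembl genes, of which 10 rows carried 1 of these symbols. The main row of each of the 9 genes passed the filter on low counts, among 13774 genes in all. The remaining row was a second, 105-base entry for Ddit3 that lies within the exons of the main one, with 0 to 3.81 counts per library, and it was not tested. In GRCm38 the genes besides Atf4 lie on chromosome 7 (Atf5 at 44812256 to 44816658, Cebpg at 35046422 to 35056573, Nupr1 at 126623249 to 126630861 and Ppp1r15a at 45522916 to 45526268, all on the minus strand) and elsewhere. Atf3 spans 191170296 to 191218039 of chromosome 1 and Trib3 152337422 to 152344032 of chromosome 2, both on the minus strand. Ddit3 spans 127290774 to 127296288 of chromosome 10 and Chac1 119351229 to 119354381 of chromosome 2, both on the plus strand.

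The cells were murine MLL-AF9 AML, an acute myeloid leukemia line carrying that fusion gene, grown in RPMI with FBS, IL-3 and SCF (2 growth factors for blood progenitors). The MCT4-KO population had Cas9 guided to MCT4, the exporter of lactate and protons encoded by Slc16a3, and the control population had a non-targeting guide. Cas9 was switched on with 4-OHT (4-hydroxytamoxifen) in both, and each was kept at 20% or 2% oxygen, with 4 libraries in each of the 4 groups. The labels name 1 line and do not say whether each population was a clone, how long it spent at 2% oxygen or whether replicates were separate cultures. The spread behind every p-value is therefore that of these libraries and may be technical.

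In the integrated stress response, kinases that sense amino acid shortage, misfolded protein, viral RNA or heme and mitochondrial trouble phosphorylate the translation factor eIF2 alpha. Most protein synthesis then slows, while translation of Atf4 rises because of short reading frames at the start of its transcript. Atf4 protein pairs with C/EBP factors, binds composite C/EBP-ATF elements, and induces amino acid carriers and enzymes together with its own partners and inhibitors. Since much of this control acts on translation and protein turnover, transcript levels do not measure the amount of Atf4 protein.

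RefSeq promoter windows (GRCm38.p6, 250 bases before to 50 after a start site) were matched for all 9 genes, 10 windows in all, because Atf5 has a pair of them. The composite element, searched as TGATGNAA on both strands, occurred in the windows of 4 genes, Chac1, Nupr1, Atf3 and Trib3, against 3.97% of 32851 windows of all genes. The cyclic AMP element TGACGTCA occurred in that of Ppp1r15a, against 1.79% of all windows. The stretches that hold these matches are shown because the genes all fell at 2% oxygen, Atf3 by the least, as described further on. Capitals mark the match, which in the first 4 lies on the strand opposite to the gene, so that the gene's own strand, printed here, reads TTGCATCA or TTACATCA. Positions count from the RefSeq start site of the window, which for Atf3, Nupr1 and Chac1 lies inside the gene span given above. For Trib3 the start site and the match both lie outside that span, on its upstream side.
Chac1, chr2:119351019-119351086, plus strand, match at -193 to -186: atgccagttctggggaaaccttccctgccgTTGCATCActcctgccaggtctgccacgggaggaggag
Nupr1, chr7:126625543-126625610, minus strand, match at -110 to -103: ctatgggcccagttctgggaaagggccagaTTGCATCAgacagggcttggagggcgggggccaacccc
Atf3, chr1:191183406-191183473, minus strand, match at -110 to -103: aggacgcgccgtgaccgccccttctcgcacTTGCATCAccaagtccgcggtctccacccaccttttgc
Trib3, chr2:152344028-152344057, minus strand, match at 15 to 22: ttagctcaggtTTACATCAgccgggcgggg
Ppp1r15a, chr7:45526269-45526340, minus strand, match at -12 to -5: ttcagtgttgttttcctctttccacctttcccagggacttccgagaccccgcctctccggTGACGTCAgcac

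The hypoxia cores ACGTG and GCGTG lay in 3 and 7 of the 10 windows, against 19.6% and 32.4% of all windows. In 39 windows of 32 amino acid targets of Atf4, a list taken up further on, these shares were 38.5% and 69.2%. The composite element lay in 30.8% of those 39 windows and the cyclic AMP element in 0%. A match is only a match of letters in this window.

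Libraries held 21192179 to 28871459 estimated counts. Slc16a3, the targeted gene, ran from 184 to 235 CPM (TMM-scaled counts relative to library size, in the usual CPM unit) in control libraries at 20% oxygen and from 70.4 to 94.7 CPM in the knockout ones, and from 789 to 844 and 358 to 370 CPM at 2%. Of 14 markers of myeloid leukemia progenitors 13 had a mean above 1 CPM in every group, Csf1r being the other, and their summed level ran from 4470 to 4890 CPM at 20% and 7690 to 8440 CPM at 2% oxygen. In control cells this sum rose mainly through Elane (693 to 3790 CPM) and Prtn3 (406 to 1290 CPM). Most of the 14 had a lower mean at 2% oxygen in both genotypes, among them Ctsg (1280 to 1030 CPM in controls) and Hoxa9 (449 to 263 CPM). Cd3e and Cd4 (T cells), Fcer1a (mast cells and basophils), Col1a2 (stroma) and Cdh5 (endothelium) were at 0 in all 16 libraries. Of the other lineages' lists, 1 of 3 mast cell and basophil markers (Mcpt8) and 1 of 5 stroma and endothelium markers (Pecam1) had a mean above 1 CPM in every group, and their sums were 6.30 to 10.2 and 180 to 188 CPM at 20% oxygen and 44.0 to 65.7 and 261 to 303 CPM at 2%. The same held for 1 of 5 T cell markers (Lck), with a sum of 28.5 to 37.5 and 10.1 to 14.6 CPM, and 1 of 5 erythroid markers (Klf1), with 1.26 to 2.06 and 2.85 to 4.89 CPM. It held for 0 of the 3 megakaryocyte and 0 of the 3 epithelial markers. Mitochondrially encoded genes took 0.605% to 0.984% of the counts at 20% and 0.241% to 0.413% at 2% oxygen, and the 10 most abundant genes 5.17% to 5.48% and 7.03% to 8.17%. The part of these marker, mitochondrial and top-gene shifts in the results below was not tested. In the controls at 2% oxygen the chi-square per gene between replicate 4 and each other library was 8.33 to 12.4, against 2.52 to 3.31 among the other 3. In the same group replicate 1 was the lowest library for 7 of the 9 genes and replicate 4 the highest for 6. Other groups were uneven too. Replicate 2 was the highest for 7 of the 9 in the controls at 20% oxygen and the lowest for 7 in MCT4-KO at 2%. The chi-square per gene ran from 3.47 to 8.95 in the controls at 20% oxygen. It ran from 2.47 to 7.48 in MCT4-KO at 20% and from 1.76 to 2.77 in MCT4-KO at 2%.

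All 9 genes were lower at 2% than at 20% oxygen in control cells. Trib3 fell 8.59-fold, Chac1 6.26-fold, Atf5 6.09-fold, Ddit3 4.85-fold, Ppp1r15a 4.78-fold, Nupr1 3.70-fold, Atf4 2.75-fold, Cebpg 2.58-fold and Atf3 1.36-fold. Of all genes tested 39.6% were called lower in this comparison, 38.7% higher and 78.3% in either direction, and 8.81% were called lower by at least 2-fold, as 8 of the 9 were. The median log2 fold change of the 9 was -2.26 against -0.02 for all genes. No library at 2% oxygen reached the level of any control library at 20% for any of the 9, where 35.3% of all genes lay wholly lower in this way, 34.8% wholly higher and 70.1% either. A gene is called here when its edgeR adjusted p, over all 13774 genes, is under 0.05. In bulk RNA, fewer cells expressing a gene and less of its RNA per cell cannot be told apart.

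**Figure D1:**
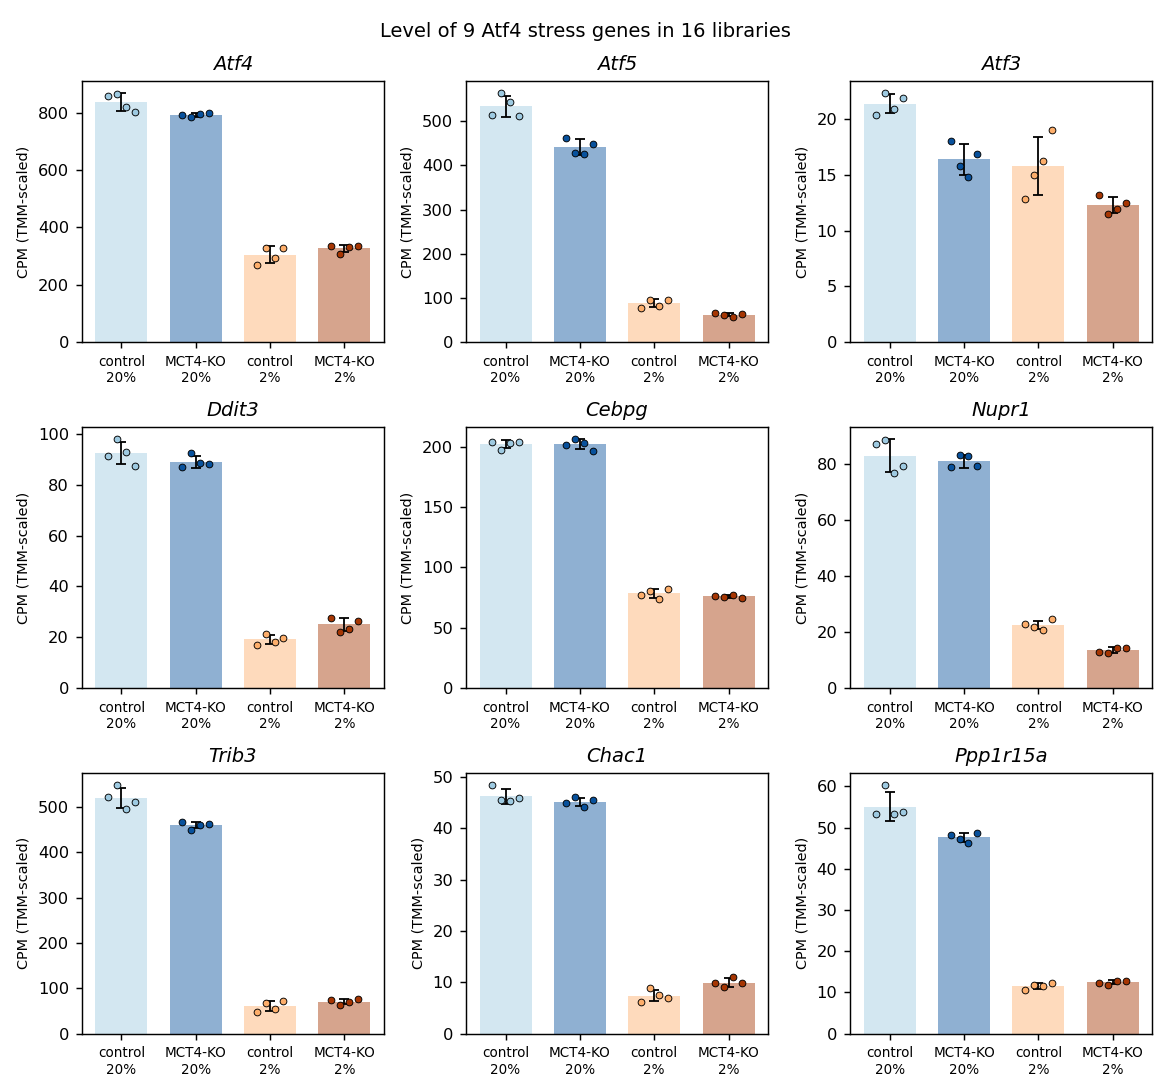
TMM-scaled CPM (vertical axes, linear from 0, each panel on its own scale) of the 9 genes by genotype and oxygen level. Points are libraries, bars the mean and whiskers 1 SD (n = 4); each gene is lower in both groups at 2% oxygen, from 837 to 305 CPM for Atf4 in control cells, and Atf3 changes least.

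Atf4 (chromosome 15, 80255184 to 80257541, plus strand, GRCm38) was the most abundant of the 9 per length of exon in every group. Control libraries read 860, 866, 820 and 803 CPM at 20% oxygen and 269, 329, 292 and 329 CPM at 2%. MCT4-KO libraries read 792, 785, 796 and 799 CPM at 20% and 334, 306, 332 and 335 CPM at 2%. The oxygen levels were far apart in both genotypes. The genotypes lay close together at each level, without overlap at 20% oxygen and with overlap at 2%. The log2 fold change of 2% against 20% oxygen was -1.46 ± 0.051 in control and -1.28 ± 0.051 in MCT4-KO cells (± SE, n = 4, edgeR adjusted p = 5.26e-16 and 5.12e-15).

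Cebpg, a C/EBP factor that pairs with Atf4, fell about as far as Atf4 itself. It stood at 202 ± 3.48 CPM in control cells at 20% oxygen and 78.3 ± 3.73 CPM at 2% (SD, n = 4), and at 202 ± 3.87 and 75.9 ± 1.08 CPM in MCT4-KO cells. Its counts were 24.2 ± 1.18% of the Atf4 counts of the same library in controls at 20% oxygen and 25.8 ± 1.93% at 2% (exact two-sided permutation p = 0.229, adjusted p = 0.253 over 32 such ratio tests). This ratio within a library does not depend on how libraries are scaled. A change in it was not shown for Cebpg in any of the 4 comparisons (adjusted p = 0.0731 to 0.253, exact permutation tests).

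Atf5, a related factor that is itself controlled by eIF2 alpha phosphorylation and linked to mitochondrial stress, fell much further. Control libraries read 515, 563, 544 and 513 CPM at 20% oxygen against 78.0, 96.1, 81.6 and 94.7 CPM at 2%. MCT4-KO libraries read 463, 429, 425 and 449 CPM against 65.2, 60.3, 57.3 and 63.1 CPM. Relative to Atf4 its counts dropped from 63.8 ± 2.80% to 28.7 ± 0.560% in control and from 55.7 ± 2.19% to 18.8 ± 1.1% in MCT4-KO cells (SD, n = 4, exact permutation p = 0.0286 each, the smallest that 70 splits allow, adjusted p = 0.0398). Atf5 shares 82 of its 1993 exon bases with Nup62 and Il4i1 on the other strand, and the labels do not say whether counting used the strand.

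Ddit3, the gene of the death-promoting factor CHOP, read 91.6, 98.0, 92.9 and 87.5 CPM in controls at 20% oxygen and 16.9, 21.4, 18.2 and 19.7 CPM at 2%. In MCT4-KO cells it read 87.2, 92.6, 88.7 and 88.3 CPM at 20% and 27.7, 22.2, 23.4 and 26.5 CPM at 2%. Its fall was thus smaller in MCT4-KO cells, -1.84 ± 0.063 against -2.28 ± 0.065 in control cells on the log2 scale. The lowest MCT4-KO library at 2% oxygen lay above the highest control library there.

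Atf3, an early stress factor that responds to many signals besides Atf4, stood out by how little it moved. Its log2 fold change was -0.44 ± 0.085 in controls and -0.41 ± 0.089 with the knockout (edgeR adjusted p = 7.68e-05 and 3.11e-04). Control libraries ran from 20.4 to 22.3 CPM at 20% oxygen and from 12.8 to 19.0 CPM at 2%. Because Atf4 fell more, Atf3 rose relative to it, from 2.56 ± 0.145% to 5.16 ± 0.589% of Atf4 counts in control cells (exact permutation p = 0.0286, adjusted p = 0.0398). Of the genes tested, 25.5% fell further than Atf3 in control cells, against 0.421% for Trib3 and 4.09% for Atf4.

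Nupr1, a small stress-induced chromatin protein, read 87.2, 88.8, 76.9 and 79.5 CPM in controls at 20% oxygen and 22.7, 21.7, 20.8 and 24.5 CPM at 2%. In MCT4-KO cells it read 79.0, 83.2, 82.9 and 79.2 CPM at 20%, and 12.9, 12.5, 14.4 and 14.3 CPM at 2%. The genotypes overlapped at 20% oxygen and were wholly apart at 2%. Its fall was larger in MCT4-KO cells (-2.58 ± 0.060) than in control cells (-1.89 ± 0.056).

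The feedback regulators, like Atf5 and Ddit3, were among the genes that fell most in the whole table. In control cells 58, 99 and 168 of the 13774 genes had a lower log2 fold change than Trib3, Chac1 and Ppp1r15a. The same number was 110 for Atf5 and 161 for Ddit3. Trib3, a pseudokinase that binds and restrains Atf4 and Ddit3, read 521, 548, 495 and 510 CPM in controls at 20% oxygen and 47.5, 67.4, 54.7 and 71.8 CPM at 2%. In MCT4-KO cells it read 466, 450, 461 and 462 CPM at 20% and 73.4, 62.8, 69.6 and 75.9 CPM at 2%. The log2 fold change of Trib3 was -3.10 ± 0.087 in control cells. In the controls at 2% oxygen it varied most of the 9, with an SD of 18.6% of the mean.

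Chac1, which degrades glutathione, read 48.4, 45.5, 45.3 and 45.8 CPM in controls at 20% oxygen and 6.27, 8.81, 7.59 and 6.86 CPM at 2%. MCT4-KO libraries read 44.9, 46.1, 44.1 and 45.4 CPM at 20% and 9.88, 9.09, 11.1 and 9.80 CPM at 2%. The genotypes overlapped at 20% oxygen but not at 2%, where MCT4-KO was the higher. Chac2, the constitutive relative of Chac1, had log2 fold changes of 0.05 ± 0.080 without and 0.01 ± 0.079 with the knockout (edgeR adjusted p = 0.655 and 0.930).

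Ppp1r15a encodes GADD34, the stress-induced subunit that brings protein phosphatase 1 to eIF2 alpha and so ends the response. It fell from 55.1 ± 3.49 to 11.5 ± 0.728 CPM in control cells and from 47.6 ± 1.03 to 12.5 ± 0.418 CPM in MCT4-KO cells (SD, n = 4). Ppp1r15b, its constitutive counterpart, fell by less, from 202 ± 3.75 to 129 ± 5.42 CPM and from 205 ± 4.93 to 145 ± 1.59 CPM (-0.65 ± 0.032 and -0.50 ± 0.032, edgeR adjusted p = 1.51e-13 and 1.27e-11).

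In MCT4-KO cells as well, all 9 genes fell at 2% oxygen, where 38.7% of all genes were called lower, 37.7% higher and 76.4% either. None of the 9 overlapped between oxygen levels, as 36.4% of all genes lay wholly lower, 36% wholly higher and 72.4% either, and 8 of the 9 fell at least 2-fold, as 6.89% of all genes did. The largest fall there was that of Atf5, 7.19-fold, then Trib3 at 6.53-fold and Nupr1 at 5.99-fold. The median of the 9 was -1.93 against -0.01 for all genes. Every one of the 9 kept its direction and its call in both genotypes in all 25 alternatives for scaling, filtering, testing and leaving out libraries. Scaling by library size alone moved the median of all genes to -0.22 in control and -0.19 in MCT4-KO cells, a shift that the changes of the 9 other than Atf3 exceeded several times over. Atf3 then changed by -0.649 and -0.588.

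**Figure D2:**
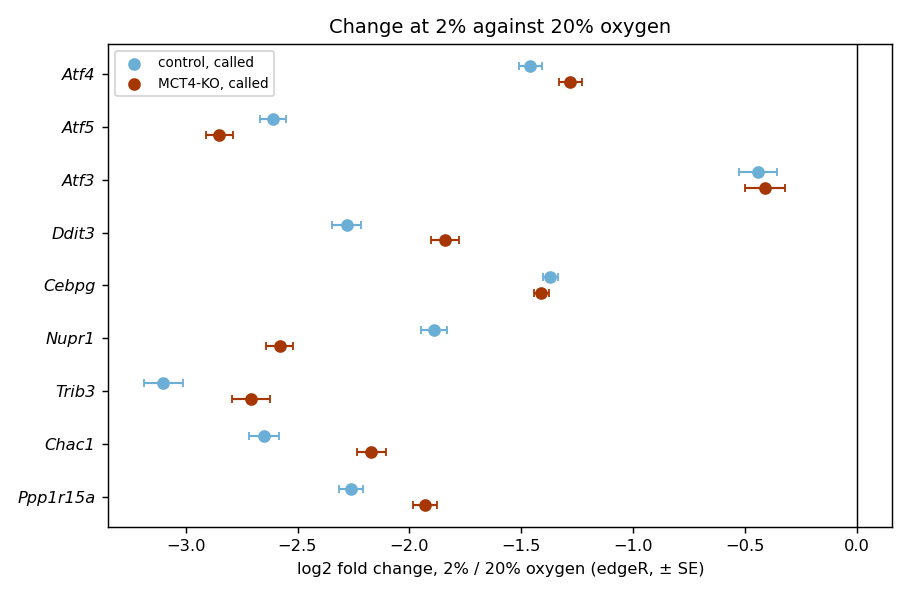
Log2 fold change of 2% against 20% oxygen (horizontal axis) for each gene in control and MCT4-KO cells, with bars of 1 SE (edgeR, n = 4 libraries per group). All values are below 0. Ddit3, Trib3, Chac1 and Ppp1r15a lie nearer 0 in MCT4-KO cells and Nupr1 and Atf5 farther from it.

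Per kilobase of exon the order of levels changed with oxygen. In controls at 20% oxygen Atf4 (355 ± 13.0 CPM per kilobase), Atf5 (268 ± 12.2) and Trib3 (244 ± 10.4) stood far above Ddit3 (54.0 ± 2.53), Cebpg (36 ± 0.619), Nupr1 (33.0 ± 2.31), Chac1 (28.2 ± 0.879), Ppp1r15a (18.8 ± 1.19) and Atf3 (9.93 ± 0.412). At 2% Atf4 held 129 ± 12.5, Atf5 44.0 ± 4.58 and Trib3 28.4 ± 5.28, and Atf3, at 7.31 ± 1.2, had passed Chac1 (4.51 ± 0.669) and Ppp1r15a (3.93 ± 0.248). These levels divide by all annotated exon bases of a gene, which may exceed the transcript in use.

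At 20% oxygen 3 of the 9 genes were lower in MCT4-KO than in control cells and 0 higher, where 4.8% of all genes were called lower, 4.96% higher and 9.76% either. Atf3 fell by 0.39 on the log2 scale (SE 0.083, edgeR adjusted p = 0.00455), Atf5 by 0.27 (SE 0.054, adjusted p = 0.00265) and Ppp1r15a by 0.21 (SE 0.044, adjusted p = 0.00355). For these 3, each MCT4-KO library lay below each control library, as in 6.90% of all genes, while 7.67% lay wholly higher. The control libraries of Atf3 read 20.4, 22.3, 20.9 and 21.9 CPM and its MCT4-KO libraries 18, 15.8, 14.8 and 16.9 CPM. For Ppp1r15a these values were 53.2, 60.3, 53.2 and 53.7 CPM against 48.1, 47.3, 46.3 and 48.7 CPM. All 3 falls were small, and with a test against a minimum fold of 1.2 none of the 9 was called.

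The libraries of Trib3 and Atf4 did not overlap between genotypes at 20% oxygen either, so that 5 of the 9 genes were wholly apart against 14.6% of all genes, but neither change was called (-0.17 ± 0.077, edgeR adjusted p = 0.173, and -0.08 ± 0.050, adjusted p = 0.372). Against Atf4 in the same library, Trib3 went from 61.9 ± 1.66% to 58.0 ± 0.648% (exact permutation p = 0.0286, adjusted p = 0.0398). Its fold change was called in 2 of 25 alternatives, without a count filter (-0.169) and when only these groups were fitted (-0.174). For Ddit3 (95% interval -0.17 to 0.07), Cebpg (-0.07 to 0.06), Nupr1 (-0.14 to 0.07) and Chac1 (-0.15 to 0.08) the groups overlapped, and these intervals allow only small changes in either direction.

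At 2% oxygen the 9 genes split between directions in the knockout. Ddit3 and Chac1 rose, while Nupr1, Atf5 and Atf3 fell, and 4 were not called, where 19.4% of all genes were called higher and 19.1% lower. The share of the 9 called in either direction, 5, is to be read against 38.4% of all genes. Ddit3 rose from 19.1 ± 1.94 to 25.0 ± 2.60 CPM (0.39 ± 0.073, edgeR adjusted p = 3.16e-04) and Chac1 from 7.38 ± 1.09 to 9.97 ± 0.836 CPM (0.44 ± 0.084, adjusted p = 3.50e-04). Nupr1 fell from 22.5 ± 1.58 to 13.5 ± 0.977 CPM (-0.73 ± 0.067, adjusted p = 1.39e-07), Atf5 from 87.6 ± 9.12 to 61.5 ± 3.44 CPM (-0.51 ± 0.061, adjusted p = 2.41e-06) and Atf3 from 15.8 ± 2.58 to 12.3 ± 0.727 CPM (-0.35 ± 0.091, adjusted p = 0.00423). The groups were wholly apart for 4 genes, Ddit3, Chac1, Nupr1 and Atf5, as for 37.0% of all genes (18.5% in each direction), and overlapped for Atf3, whose highest MCT4-KO library (13.2 CPM) exceeded the lowest control library (12.8 CPM).

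**Figure D3:**
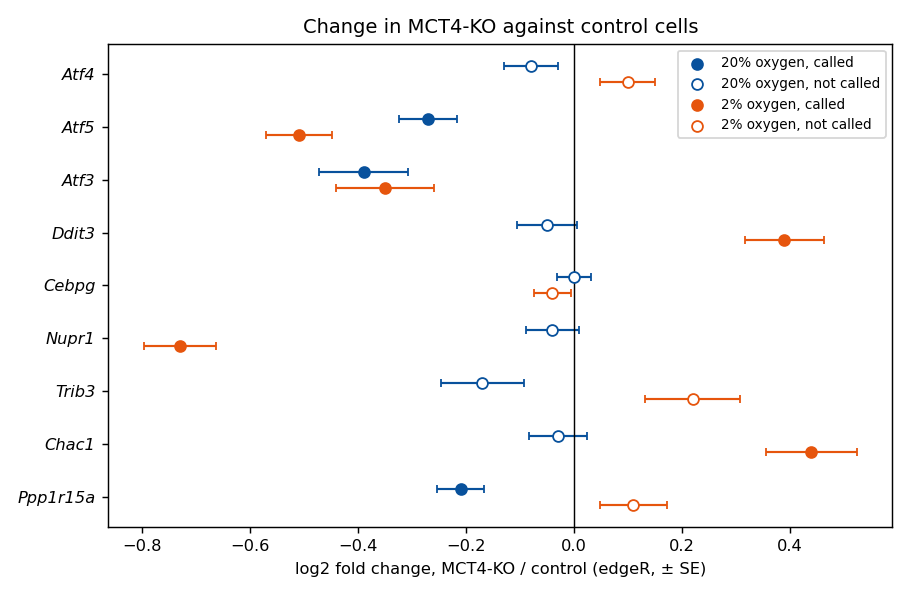
Log2 fold change of MCT4-KO against control (horizontal axis) at 20% and 2% oxygen with bars of 1 SE (edgeR, n = 4 libraries per group); filled points passed an adjusted p of 0.05 and open points did not. At 2% oxygen Ddit3 (0.39) and Chac1 (0.44) are above 0 and Nupr1 (-0.73), Atf5 (-0.51) and Atf3 (-0.35) below it.

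Atf4 itself had a log2 fold change of 0.10 ± 0.051 at 2% oxygen and was not called (edgeR adjusted p = 0.132, 95% interval -0.01 to 0.21). Without control replicate 2 or 4 it was (0.141 and 0.140). Trib3 stood just outside the threshold (0.22 ± 0.088, adjusted p = 0.0507) and was called in 7 of 25 alternatives, among them without control replicate 2 (0.284), control replicate 4 (0.317) or MCT4-KO replicate 2 (0.275). Cebpg (-0.04 ± 0.034, 95% interval -0.12 to 0.03) and Ppp1r15a (0.11 ± 0.062, 95% interval -0.02 to 0.25) were not called either. With library-size scaling 8 of the 9 were called, Atf4 (0.140), Trib3 (0.263) and Ppp1r15a (0.153) joining, and 5444 of all 13774 genes. Of all genes called 63.1% were then higher, against 50.4% of the 5295 called with TMM. With a minimum fold of 1.2 only Atf5 and Nupr1 of the 9 were called, and 614 of all genes.

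Relative to Atf4 in the same library, the split between genes was plain at 2% oxygen. Nupr1 went from 7.41 ± 0.770% of Atf4 counts in control to 4.14 ± 0.215% in MCT4-KO libraries, Atf5 from 28.7 ± 0.560% to 18.8 ± 1.1% and Atf3 from 5.16 ± 0.589% to 3.77 ± 0.146%. Ddit3 went from 6.25 ± 0.219% to 7.63 ± 0.583% and Chac1 from 2.42 ± 0.272% to 3.05 ± 0.199% (SD, n = 4, exact permutation p = 0.0286 for each of these 5, adjusted p = 0.0398 over 32 tests). The ratio of Ppp1r15a was 3.80 ± 0.178% and 3.82 ± 0.0878% (exact permutation p = 0.943, adjusted p = 0.943) and that of Trib3 19.7 ± 1.85% and 21.5 ± 0.976% (p = 0.143, adjusted p = 0.176).

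**Figure D4:**
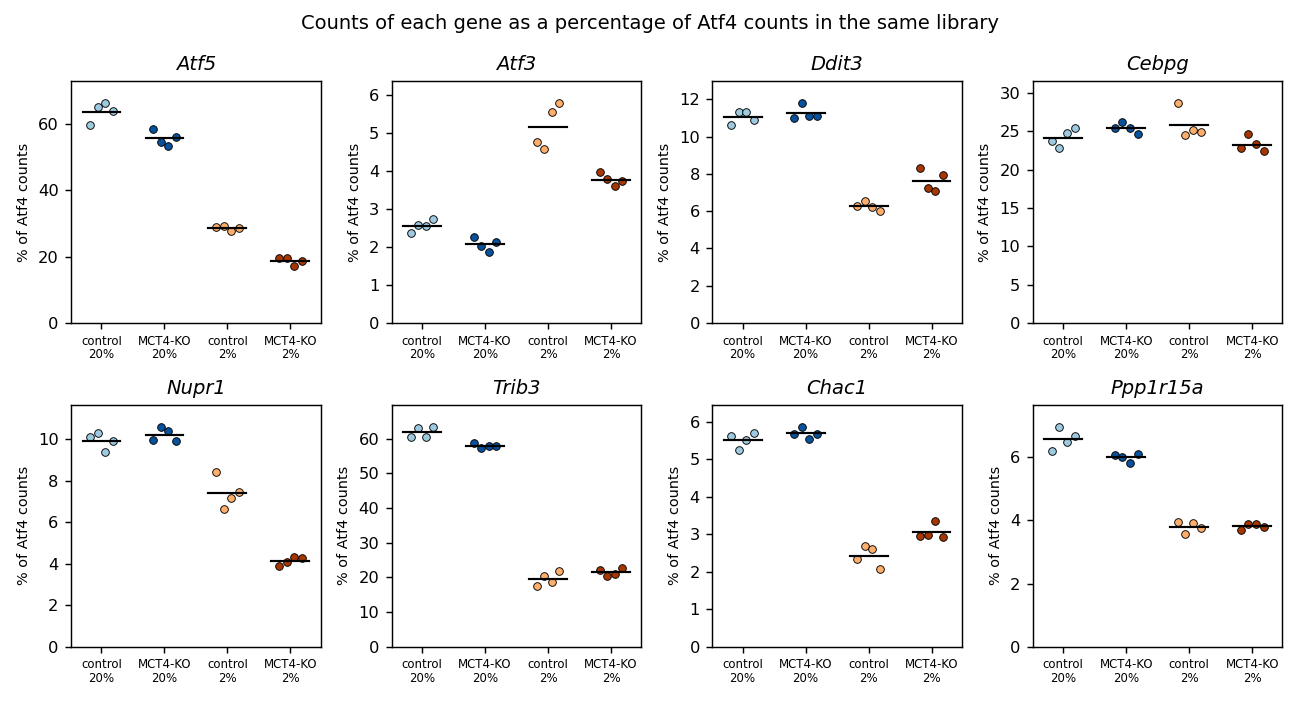
Counts of 8 genes as a percentage of the Atf4 counts in the same library (vertical axes, linear from 0), for the 4 groups, with a point per library and a line at each mean. At 2% oxygen MCT4-KO libraries lie lower for Atf5, Atf3 and Nupr1 and higher for Ddit3 and Chac1, while Ppp1r15a stands at 3.80% and 3.82%.

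Ddit3 shares 68 of its 1713 exon bases with Mars, a tRNA ligase gene on the other strand. At 2% oxygen Mars had a mean of 166 CPM without and 196 CPM with the knockout (0.24 ± 0.036, edgeR adjusted p = 3.02e-05), so both moved the same way, and the part of Mars reads in the Ddit3 counts was not tested. Nup62, which overlaps Atf5, moved against it, from 152 to 188 CPM.

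The knockout effect itself differed between oxygen levels for 6 of the 9 genes. The difference, the effect at 2% minus that at 20% oxygen, was above 0 for Chac1 (0.47 ± 0.10, edgeR adjusted p = 0.00189), Ddit3 (0.44 ± 0.091, adjusted p = 0.00178), Trib3 (0.40 ± 0.12, adjusted p = 0.0184) and Ppp1r15a (0.33 ± 0.076, adjusted p = 0.00421), where 11.6% of all genes were called in that direction and 22.9% in either. It was below 0 for Nupr1 (-0.69 ± 0.083, adjusted p = 1.60e-05) and Atf5 (-0.24 ± 0.082, adjusted p = 0.0404), where 11.3% were. All 3 feedback regulators were thus on the side above 0. Atf4 (0.18 ± 0.071, adjusted p = 0.0786), Cebpg (-0.04 ± 0.047, adjusted p = 0.594) and Atf3 (0.03 ± 0.12, adjusted p = 0.879) were not called. Of the 6, Nupr1 alone was called with a minimum fold of 1.2.

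The call for Atf5 was the least firm, since it held in 12 of 24 alternatives. Among those that ended it were a block for the replicate number (-0.236, adjusted p = 0.0551) and library-size scaling (-0.211). At 20% oxygen, leaving out replicate 1 (-0.223) or 4 (-0.220) of the controls, or 1 (-0.216) or 4 (-0.231) of the knockout, ended it too. At 2% it was lost without replicate 2 (-0.189) or 4 (-0.200) of the controls, or 2 (-0.229), 3 (-0.205) or 4 (-0.251) of the knockout. Atf4 passed without control replicate 2 (0.218) or 4 (0.217) at 2% oxygen, with library-size scaling (0.206) and without a count filter (0.177).

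Across the 16 libraries, which share the step between oxygen levels, the 28 pairs without Atf3 had a Pearson's r of log2 CPM of 0.932 or more, and the 8 pairs with Atf3 ran from 0.650 to 0.788. Among 8978 well-expressed named genes, the one most like Atf4 over the 16 libraries was Trib3 (r = 0.9996), then Cyb5r1 (0.9988) and Slc25a33 (0.9978). Taking each library's deviation from its group mean, Trib3 was again the nearest to Atf4 (r = 0.9604), and the 36 pairs among the 9 genes ran from 0.00447 to 0.960 with a median of 0.4705. Ddit3 was most like Orc2, Ddx27 and Dnajc2 over the 16 libraries (r = 0.9972 or more), Nupr1 most like Zfp740 (0.9959), and Atf3 most like H2-Q4 (0.9327). These correlations are descriptions over 16 libraries that share 4 groups.

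Of 9 genes for eIF2 alpha kinases and their regulators, 3 rose and 3 fell at 2% oxygen in control cells, with a median of -0.05, where 38.7% of all genes were called higher and 39.6% lower. The 3 that fell were Impact, an inhibitor of Gcn2, Gcn1l1 and Dele1, the last named after its values were seen. The endoplasmic reticulum kinase Perk (Eif2ak3) went from 28.6 ± 1.51 to 35.8 ± 0.597 CPM (0.32 ± 0.048), the double-stranded RNA kinase Pkr (Eif2ak2) rose by 0.36 ± 0.050 and the amino acid sensor Gcn2 (Eif2ak4) by 0.12 ± 0.050 (edgeR adjusted p = 4.23e-06, 1.24e-06 and 0.0420). The heme-regulated kinase Hri (Eif2ak1) had a log2 fold change of -0.05 ± 0.042 (adjusted p = 0.280), and rose in MCT4-KO against control cells at 2% oxygen (0.17 ± 0.042, adjusted p = 0.00260). Impact fell from 12.2 ± 1.26 to 4.41 ± 0.339 CPM (-1.46 ± 0.095). Of 15 genes for eIF2, eIF2B and the phosphatase, 5 rose and 7 fell in control cells, shares near those of all genes. Transcripts of these genes do not measure kinase activity.

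Atf4 is also held down by prolyl hydroxylases and by tribbles proteins. The hydroxylases Egln3 (146 ± 19.6 to 1460 ± 72.5 CPM) and Egln1 (120 ± 3.73 to 349 ± 13.0 CPM) rose at 2% oxygen in control cells, while Egln2, named after its values were seen, fell from 69.0 ± 4.08 to 54.3 ± 4.22 CPM (-0.35 ± 0.050, edgeR adjusted p = 2.21e-06). The tribbles relative Trib1 fell by 0.68 (SE 0.10, edgeR adjusted p = 3.19e-06), far less than Trib3, while Trib2 rose from 0.166 ± 0.128 to 1.48 ± 0.303 CPM (3.18 ± 0.32, adjusted p = 1.58e-08), still a low level, and was called higher at 2% oxygen in MCT4-KO cells too. The C/EBP partners of Atf4 diverged: Cebpb fell from 356 ± 9.64 to 215 ± 15.0 CPM (-0.73 ± 0.066), Cebpa changed by -0.12 ± 0.041 (adjusted p = 0.0145) and Cebpd rose by 0.50 ± 0.050. A list of 26 tested genes held bZIP factors together with Ddit4 and Cebpz, which are not bZIP proteins. In it 7 genes rose, Ddit4 (named after its values were seen) among them, and 16 fell, Cebpz (-1.10 ± 0.037), Jdp2 (-1.35 ± 0.037) and Jund (-1.27 ± 0.039) among the falls. Of all genes tested, 38.7% were called higher and 39.6% lower in this comparison.

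The amino acid targets of Atf4 fell with the 9 genes at 2% oxygen by a smaller median, and most rose in the knockout at 2%. Of 42 such genes, 36 fell and 4 rose in control cells (median -1.07), where 39.6% of all genes were called lower and 38.7% higher. The counts were also 36 and 4 in MCT4-KO cells (median -0.77), where 38.7% and 37.7% were. The glycine carrier Slc6a9 went from 48.3 ± 2.08 to 6.84 ± 0.608 CPM in control cells (-2.82 ± 0.059), Cth, which makes cysteine, from 67.3 ± 1.61 to 15.2 ± 0.978 CPM (-2.14 ± 0.049), and asparagine synthetase (Asns) from 400 ± 11.4 to 282 ± 13.7 CPM (-0.50 ± 0.040). In MCT4-KO against control cells 4 rose and 2 fell at 20% oxygen (median 0.03), where 4.96% of all genes were called higher and 4.8% lower. At 2% oxygen 30 rose and 1 fell in MCT4-KO against control cells (median 0.24), where 19.4% of all genes were called higher and 19.1% lower. At 2% Bcat1 went from 3.26 ± 0.430 to 7.33 ± 0.653 CPM (1.17 ± 0.11), Slc7a5 from 173 ± 11.5 to 248 ± 7.03 CPM (0.52 ± 0.041) and Slc7a1 from 131 ± 4.17 to 179 ± 4.89 CPM (0.45 ± 0.036). The rises of Ddit3 and Chac1 went the same way as most of these targets, and the falls of Nupr1, Atf5 and Atf3 the other way.

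**Figure D5:**
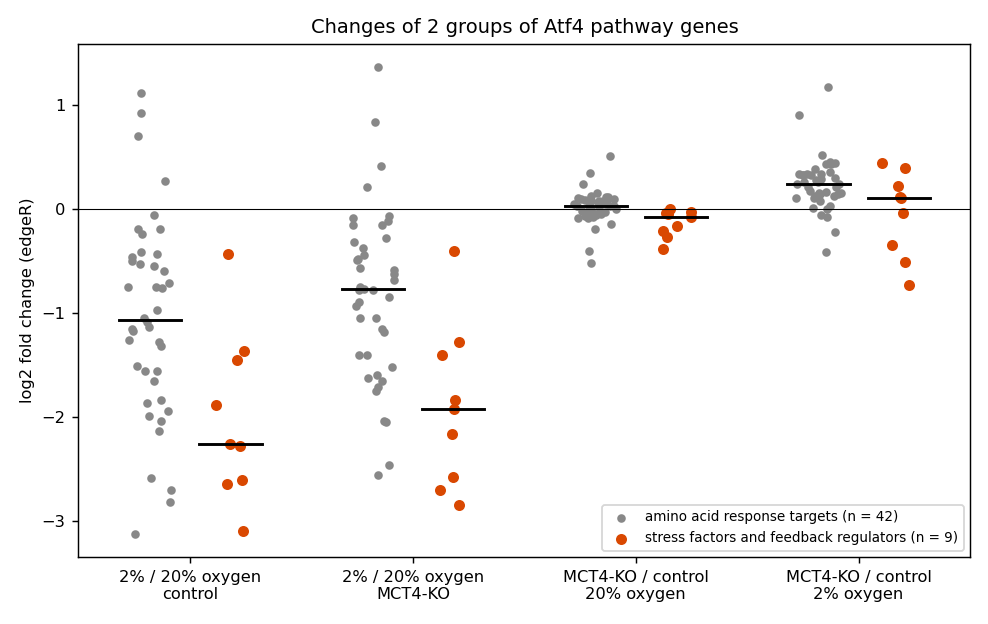
Log2 fold changes (vertical axis, edgeR) in 4 comparisons of the 42 amino acid response targets of Atf4 (grey) and the 9 stress factors and feedback regulators (orange), where points are genes and lines medians. At 2% oxygen the 9 genes have a median of -2.26 in control cells against -1.07 for the targets; in the knockout at 2% oxygen they spread from -0.73 to 0.44.

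In neighbouring stress branches genes rose as well as fell. Of 18 tested genes of the ATF6 and XBP1 branches of the unfolded protein response, 10 rose and 6 fell at 2% oxygen in control cells (median 0.29), against 38.7% and 39.6% of all genes, so that the share that fell was near that of all genes. The disulfide isomerase Pdia6 rose by 1.41 ± 0.035 and calreticulin (Calr) by 0.75 ± 0.033, while the chaperone BiP (Hspa5) fell from 845 ± 32.8 to 691 ± 37.5 CPM (-0.29 ± 0.043). In MCT4-KO cells at 2% oxygen 10 were higher than in control and 1 lower, against 19.4% and 19.1% of all genes, Hspa5 at 850 ± 10.9 CPM among the former (0.30 ± 0.043). Of 12 mitochondrial stress genes, to which Atf5 is linked, 5 rose and 6 fell with low oxygen in control cells, near the shares of all genes, and 6 rose and 0 fell in the knockout at 2% oxygen, led by Hspa9 (0.35 ± 0.036) and Hspd1 (0.38 ± 0.047). Of 10 death and oxidation genes linked to CHOP, 5 rose and 3 fell with low oxygen in control cells: the oxidase Ero1l rose by 1.48 ± 0.042 and Bbc3, the gene of Puma, fell by 1.24 (SE 0.058). In the knockout at 2% oxygen 0 of the 10 rose and 3 fell, where 19.4% of all genes were called higher and 19.1% lower, too few genes to set apart from that background.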

How the data were processed

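Poly(A) RNA of 16 libraries was sequenced. The authors deposited 1 table of expected counts per Ensembl gene; HISAT2, RSEM and mm10 are named per the submitters' processing notes, with versions, annotation and strand setting not given in the sources used here. Values were rounded, since 10.1% had decimals. Symbols and positions came from GENCODE vM21 (GRCm38), which matched 53706 identifiers. Genes passing filterByExpr (13774) were TMM-scaled and fitted with 1 mean per group over all libraries (12 residual degrees of freedom) and tested by the quasi-likelihood F-test of edgeR 4.0.16 in R 4.3.3, adjusted by Benjamini-Hochberg over all genes. SE is the log2 fold change divided by the root of F; intervals use 12 degrees of freedom. The test was checked on simulated counts. Ratios to Atf4 used unscaled counts and exact two-sided permutation tests. A count of 0 allows up to 3 counts, 0.124 CPM on average, for counting error only. The genes and lists, written from general knowledge of the pathway, were chosen with earlier results of these data known. The 9 genes are named whatever their result. From each list the text names fixed genes and some of the 4 called genes with the smallest adjusted p, and likeness names the 3 genes with the highest correlation. Alternatives were DESeq2 1.42.0 size factors and Wald test, library-size scaling, other filters, limma-voom (limma 3.58.1), the compared groups only, a replicate block, leaving out each library and testing against a minimum fold of 1.2.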

Additional observations from a re-analysis of the deposited data

Results flagged for a closer look

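The knockout effect differed between oxygen levels for 6 of the 9 genes by the interaction test of edgeR (effect at 2% minus effect at 20% oxygen, log2): Chac1 at 0.47, Ddit3 at 0.44, Trib3 at 0.40, Ppp1r15a at 0.33, Atf5 at -0.24 and Nupr1 at -0.69. Of all 13774 genes, 22.9% were called by this test, 11.6% above 0 and 11.3% below it. The call for Atf5 held in only 12 of 24 alternatives.

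Of 36 sets of 4 libraries, 4 held a library far from the other 3 by Dixon's criterion, which chance meets in about 1 of 20 sets. They were replicate 2 of MCT4-KO at 2% oxygen for Atf4 (306 CPM, the lowest), replicate 2 of the controls at 20% oxygen for Cebpg (197 CPM, the lowest) and for Ppp1r15a (60.3 CPM, the highest), and replicate 1 of the same group for Chac1 (48.4 CPM, the highest). Leaving out that library did not change a call of Cebpg, Ppp1r15a or Chac1 in any of the 5 comparisons, nor one of Atf4.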

How the results depend on the processing

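Across 25 alternatives 1070 of 1116 recomputed fold changes of the 9 genes kept their direction and their side of the threshold. Of the rest 22 lost and 17 gained a call, and 7 changed sign, all of them values that were never called. Cebpg in the knockout at 20% oxygen changed sign with library-size scaling (0.00784) or leaving out replicate 1 (0.00091) or 4 (0.000585) of the controls or 4 of the knockout (0.00795). Its range over all alternatives was -0.0168 to 0.00795. The oxygen dependence of Atf3 changed sign without MCT4-KO replicate 3 at 20% (-0.0146), control replicate 1 at 2% (-0.0565) or MCT4-KO replicate 1 at 2% oxygen (-0.00342). The range of this value over all alternatives was -0.0565 to 0.137. With a minimum fold of 1.2 the knockout called 0 of the 9 genes and 97 of all genes at 20% oxygen, 2 and 614 at 2%, and 1 and 289 for the interaction, fewer by the construction of that test. Library-size scaling called 8 of the 9 and 5444 of all genes in the knockout at 2% oxygen, against 5 and 5295 with TMM. Leaving out 1 library at a time called 3 of the 9 at 20% oxygen each time, with 895 to 1699 of all genes (895 without MCT4-KO replicate 2, against 1344), 5 to 7 and 4573 to 5389 at 2%, and 5 to 6 and 2635 to 3339 for the interaction. With library-size scaling 35.2% of the genes called in the oxygen comparison were higher in control and 35.4% in MCT4-KO cells, against 49.4% and 49.3%, and of those called in the knockout at 20% oxygen 60.1% were, against 50.8%. With a replicate block 1059 genes were called in the knockout at 20% oxygen, and the only call among the 9 that it changed was the interaction of Atf5. Same-numbered libraries of different groups had correlations of deviations from -0.0637 to 0.115, and 3 of 16 libraries correlated best with their own number, so no pairing by number was seen. The labels do not say whether same-numbered libraries shared a culture or day. The cause of the other changes was not tested. The lowest count of any of the 9 in a library was 145 (Chac1), where counting error is largest, and the second entry for Ddit3 was too low to test.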
